A study of Mus musculus with 2 samples.

Results

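The genes of the elastic fibre were examined in cultured urogenital sinus mesenchyme (UGM) of the mouse, the fetal stroma that surrounds the epithelium from which the prostate buds. The set holds 10 genes: the elastin gene Eln, the microfibril genes Fbn1, Fbn2, Mfap2 and Mfap5, the fibulin genes Fbln1, Fbln2 and Fbln5, and the crosslinking genes Lox and Loxl1. They stand among 18193 genes named on the array. A gene's value is that of its probe set (a group of probes read as 1 value) with the highest mean log2 intensity over both arrays, among probe sets that name the gene alone. Of the 10 genes, 9 had such a probe set and 8 were measured, meaning that at least 1 array reached log2 5 (an intensity of 32), the floor used here. Fbn1 was not analysed here, and Mfap2 lay under the floor on both arrays. The genes were chosen by their part in the elastic fibre with their differences between these 2 arrays known, and each probe set was selected on its mean log2 intensity over the same arrays, so everything below is a description and no difference is tested.

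There were 2 arrays, 1 for each condition, and no replicates, so no difference can be set against the spread between cultures. Both cultures were UGM cells of male C57BL/6 mice at day 16, kept for 72 h in RPMI medium with serum (5%) stripped of steroids by charcoal, and with 5 µg/ml of the antibiotic Plasmocin. The untreated culture received nothing else, and the T+E2 culture received testosterone at 12 nM and estradiol-17β at 120 pM together, so the effect of either hormone alone was not measured. The titles of both samples give 24 h, whereas the other labels give 72 h. The descriptions call the untreated cells confluent and the T+E2 cells nearly confluent, while the growth protocol gives 80% confluency for both. If the descriptions hold, cell density and hormone cannot be told apart in any difference below.

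Elastic fibres let tissues such as arteries, lung and skin stretch and recoil. Their core is elastin, secreted as soluble tropoelastin and laid down on a scaffold of microfibrils, which are built from fibrillins and carry small glycoproteins such as the products of Mfap2 and Mfap5. Fibulins bridge tropoelastin, microfibrils and cells, and the lysyl oxidases encoded by Lox and Loxl1 oxidise lysines so that elastin, and for Lox also collagen, becomes covalently crosslinked. Fibrillin microfibrils also hold latent TGF-β through its binding proteins.

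Elastin was the one member well below the rest by the probe set that gives its value. With the mean of its probe sets its difference was only a bound of -0.45, set by the floor. That bound does not place Eln against Mfap5. Eln was lower with T+E2, Fbn2 was higher, and the crosslinking genes Lox and Loxl1 were slightly higher. Of the 8 measured genes, Eln alone was lower by 2-fold or more, Fbn2 alone was higher by 2-fold or more, and the remaining 6 lay between. Over all 10267 measured genes, 4.01% were lower by that much, 4.96% were higher and 8.97% were one or the other. At 1.5-fold, 2 members were higher (Fbn2 and Fbln2) and 2 were lower (Eln and Mfap5), where 17.1% of all measured genes were higher and 14.1% lower. The members' median log2 difference (T+E2 minus untreated) was 0.37, with 6 above 0 and 2 below. Over all measured genes the median was 0.07 and 55.8% lay above 0. Fbln5, counted among the 6, stood at 0.08, next to that median. The 2-fold counts over all genes were 509 higher and 412 lower, and with differences centred on their median the split was 408 and 520.

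**Figure D1:**
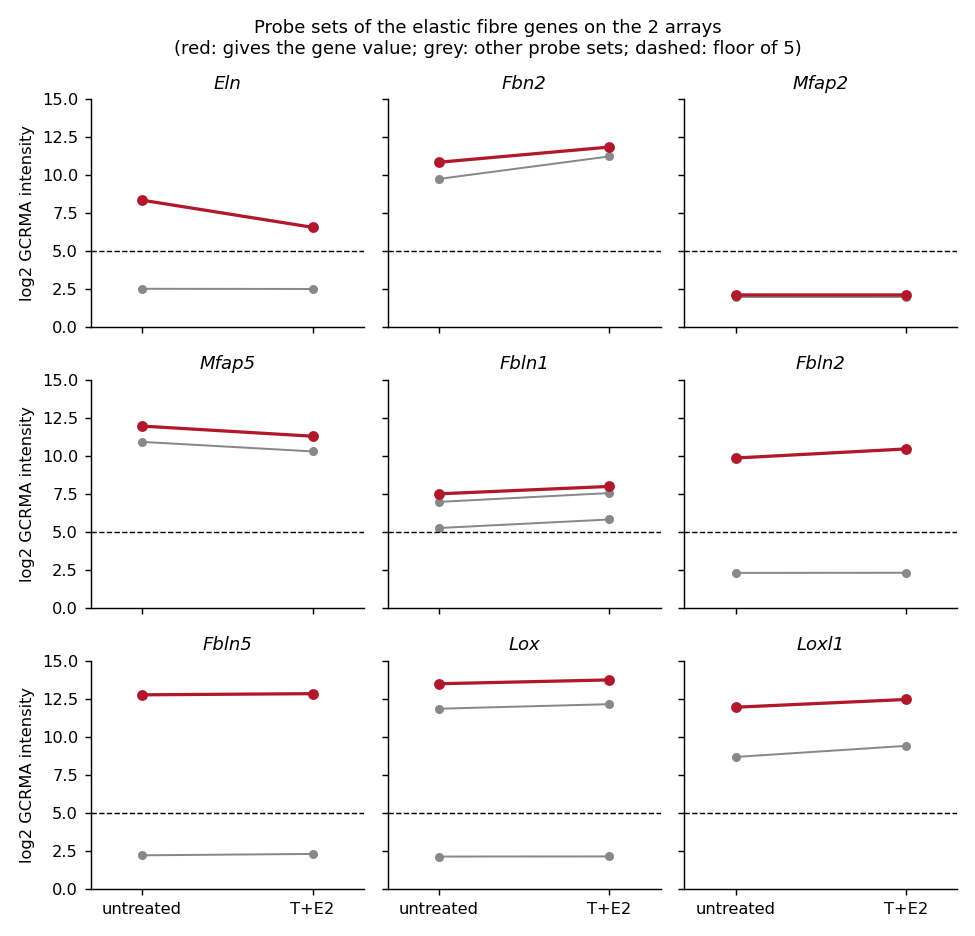
Log2 GCRMA intensity (vertical axis) of every probe set of 9 elastic fibre genes on the untreated and the T+E2 array, 1 panel per gene. Red lines give the gene's value, grey lines are its other probe sets, and the dashed line is the floor of 5; the red line falls from 8.37 to 6.58 for Eln and from 11.99 to 11.32 for Mfap5, is level near 2.13 for Mfap2, and runs level or upward for the others.

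Eln encodes tropoelastin. Its value was 331 intensity units on the untreated array and 95.8 with T+E2 (log2 8.37 and 6.58), a 3.46-fold lower intensity (log2 difference -1.79). Both values were above the floor. The difference was the largest of the 8 measured members in either direction, and its rank was 52 from the lowest of the 10267 measured genes. It rests on 1 probe set, 1420855_at. The other Eln probe set, 1420854_at, annotated to the same sequence accession, lay near background on both arrays, at log2 2.53 and 2.52, and gives no difference. With the mean of both probe sets as the gene's value the difference was -0.45, which did not reach 2-fold. This is a bound, since the T+E2 mean lay under the floor and was raised to it. By that rule Mfap5 stood at -0.65, and the bound does not show which of Eln and Mfap5 was lower. Eln spans 44.8 kb in the RefSeq table of assembly GRCm38.p6. Of 4936 measured genes with a span of 10 to 50 kb, 3.71% were at least 2-fold lower.

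The 5 measured genes whose pair of log2 values lay nearest that of Eln, by Euclidean distance over the 2 arrays, were Dus2, Rbm6, Nat8f1, Ccdc39 and Nit2. Their distances ran from 0.17 to 0.26 and their differences from -2.06 to -1.46. This likeness compares log2 values of different probe sets over only 2 arrays. The genes were picked by these same values, so differences near that of Eln follow from the choice.

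**Figure D2:**
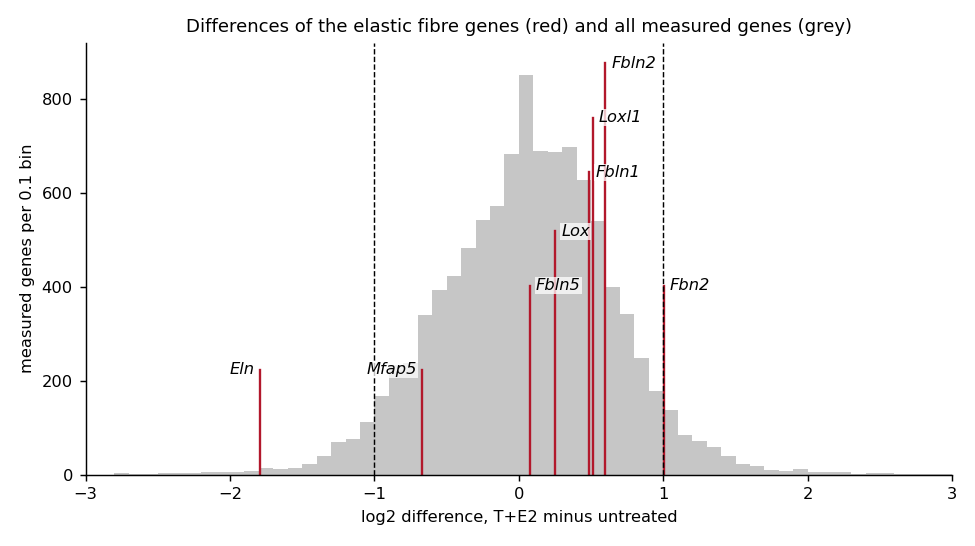
Histogram of the log2 difference, T+E2 minus untreated (horizontal axis), over the 10267 measured genes, as genes per bin of 0.1 (grey), with the 8 measured elastic fibre genes as red lines whose height has no meaning. Dashed lines mark 2-fold, and 14 genes beyond 3 in either direction lie outside the axis; Eln stands in the lower tail at -1.79, Fbn2 on the upper dashed line at 1.003 and the rest between.

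Among the microfibril genes, the values for Fbn2 and Mfap5 lay on opposite sides. Fbn2 encodes fibrillin 2, a fibrillin made mainly in development. Its value was 1866 intensity units on the untreated array and 3739 with T+E2, a 2.004-fold higher intensity (log2 difference 1.003), at the edge of the 2-fold criterion. Its other probe set, 1422831_at, stood at 872 and 2439, 2.80-fold higher (1.48). Both Fbn2 probe sets were thus higher with T+E2. Fbn2 is the longest of the 8 measured members, at 202 kb, and long genes were higher with T+E2 across the array. Of the 482 measured genes of 200 kb or more, 20.3% were at least 2-fold higher, against 2.80% of those of 10 to 50 kb. By signal, 1.25% of genes with a mean log2 of 11 or more, where Fbn2 lies, were at least 2-fold higher. With the trend of the difference with span removed, Fbn2 stood at 0.48, and with centring at 0.93, both under 2-fold.

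Mfap5 encodes microfibril-associated glycoprotein 2, which binds fibrillins. It stood at 4061 intensity units on the untreated array and 2556 with T+E2, 1.59-fold lower (log2 difference -0.67). Its second probe set gave 1974 and 1277 (-0.63), so the 2 probe sets differed from each other by 0.04. Mfap5 and Eln were the only members below 0, and Mfap5 did not reach 2-fold. Mfap2, which encodes the related glycoprotein 1, was at log2 2.13 on both arrays with 1 probe set and at 1.993 and 1.997 with the other. No difference is given for it.

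The fibulin genes Fbln1 and Fbln2 were slightly higher with T+E2, and Fbln5 was nearly equal on the 2 arrays. Fbln2 encodes fibulin 2, a matrix protein that binds tropoelastin and basement membrane proteins. It stood at 945 intensity units on the untreated array and 1430 with T+E2 (1.51-fold, log2 difference 0.60), from 1 probe set, while a second was near background on both. Fbln1, which encodes fibulin 1, stood at 184 and 258 (1.40-fold, 0.49). All 3 Fbln1 probe sets were above the floor and higher, with differences of 0.49, 0.56 and 0.58. Fbln5 encodes fibulin 5, which tethers tropoelastin and LOXL1 and is needed for elastic fibre assembly. It stood at 7049 and 7432 (1.05-fold, 0.08). With the span trend removed, Fbln5 turned to -0.22, Fbln1 stood at 0.16 and Fbln2 at 0.35. Fbln2 stood at 0.53 with centring and at 0.30 with the mean of its probe sets, so it was under 1.5-fold under all 3 of these alternatives.

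The RefSeq promoter table (GRCm38.p6) matched 5 of the 10 members, of which the 3 fibulins were measured, and their upstream sequences are shown so that a reader can set them beside the 3 differences. Each is the 250 bases before an annotated start, read 5′ to 3′ on the gene's strand. Fbln1 and Fbln5 have 2 starts each, and the one farther upstream is shown. The windows are chr15:85205699-85205948 on the plus strand for Fbln1, chr6:91212514-91212763 on the plus strand for Fbln2 and chr12:101819120-101819369 on the minus strand for Fbln5. Capitals mark a single arm, TGTTCT, of the androgen receptor element (in Fbln1) and the GC box GGGCGG, to which Sp1 family factors bind (in Fbln2 and Fbln5), on either strand.
Fbln1: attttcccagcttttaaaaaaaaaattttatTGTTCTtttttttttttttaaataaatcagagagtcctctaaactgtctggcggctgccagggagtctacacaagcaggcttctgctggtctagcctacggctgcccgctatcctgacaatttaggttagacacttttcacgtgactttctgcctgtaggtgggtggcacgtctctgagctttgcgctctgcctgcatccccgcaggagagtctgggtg
Fbln2: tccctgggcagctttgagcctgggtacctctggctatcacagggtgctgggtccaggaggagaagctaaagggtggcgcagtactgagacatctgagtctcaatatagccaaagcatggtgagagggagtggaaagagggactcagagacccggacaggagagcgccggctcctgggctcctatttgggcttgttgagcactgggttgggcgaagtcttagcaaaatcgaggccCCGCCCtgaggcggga
Fbln5: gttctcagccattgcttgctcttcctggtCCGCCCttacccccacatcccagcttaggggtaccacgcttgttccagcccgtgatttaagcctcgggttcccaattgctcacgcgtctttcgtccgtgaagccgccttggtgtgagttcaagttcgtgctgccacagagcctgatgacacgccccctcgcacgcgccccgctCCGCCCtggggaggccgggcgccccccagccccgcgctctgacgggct

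Over all 5 fibulin windows, the starts not shown included, 3 hold a GC box, against 32.7% of all 32851 promoter windows of this length: those of Fbln2 and of the upstream Fbln5 start, and that of the Fbln1 start not shown. The arm TGTTCT is in 1 of the 5 (the upstream Fbln1 start), against 16.1% of all windows. The arm GGTCA of the estrogen receptor element is also in 1 (the Fbln5 start not shown), against 35.2%. None of the 5 holds the AP-1 site TGANTCA (6.75% of all windows), the TATA box TATAAA (12.4%), the full androgen and glucocorticoid receptor element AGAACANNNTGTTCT (0.00913%) or the full estrogen receptor element GGTCANNNTGACC (0.0639%). All were searched on both strands, and each arm is part of its full element. The 2 Fbln1 windows overlap. G and C make up 46.4% of the upstream and 62.4% of the other Fbln1 window, 58.8% of that of Fbln2, and 65.2% of the upstream and 49.6% of the other Fbln5 window, against a median of 52.4% over all windows.

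The crosslinking genes were modestly higher with T+E2. The quartiles of the difference over all measured genes were -0.32 and 0.45, so Lox lay between them and Loxl1 just above. Lox encodes lysyl oxidase, the copper enzyme that crosslinks elastin and fibrillar collagens. It stood at 11684 intensity units on the untreated array and 13920 with T+E2 (1.19-fold, log2 difference 0.25). A second probe set, drawn from the same sequence accession, stood at 3737 and 4598 (0.30). The third was near background on both arrays. Loxl1 encodes lysyl oxidase-like 1, which acts on elastin at sites marked by fibulin 5. It stood at 4003 and 5706 (1.43-fold, 0.51), and its second probe set at 413 and 686 (0.73). Within these arrays the Eln difference, which rests on 1 measured probe set, was 2.04 log2 units below that of Lox. It was 2.30 below that of Loxl1.

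Of the 20 probe sets of the members, 14 were measured and 6 were under the floor on both arrays. In the 5 members with several measured probe sets (Fbn2, Mfap5, Fbln1, Lox and Loxl1), all lay on the same side. The SD between probe sets was largest for Fbn2, at 0.34, and smallest for Mfap5, at 0.03, against a median of 0.22 over genes with several measured probe sets. The differences of Eln, Fbln2 and Fbln5 have no such check, since each rests on 1 measured probe set.

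Other genes of the elastic fibre that the set leaves out also differed in both directions. Of 20 listed, 14 were measured, and their median was 0.31. At 2-fold or more, 2 of them were higher and 1 was lower, which leaves 11 between. Over all measured genes, 4.96% were higher and 4.01% lower by that much. Thsd4, which encodes ADAMTSL6, a promoter of microfibril assembly, stood at log2 5.05 on the untreated array, at the floor, and at 6.74 with T+E2 (3.23-fold higher). The lysyl oxidase family gene Loxl4 stood at 6.04 and 7.45 (2.65-fold higher). Adamts10, which encodes a fibrillin-binding protease, was lower, at 9.78 and 8.61 (2.25-fold). Thsd4, Loxl4 and Adamts10 each have a second probe set, under the floor on both arrays, which gives no difference. The other listed gene below 0 was Mfap4, whose product binds tropoelastin and fibrillins, at 8.13 and 7.39 (-0.74). Genes of the latent TGF-β binding proteins, which dock on microfibrils, lay between 0.34 (Ltbp3) and 0.67 (Ltbp2). A further Ltbp3 probe set stood apart from these, at 6.71 on the untreated array and under the floor with T+E2, at least 3.28-fold lower.

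**Figure D3:**
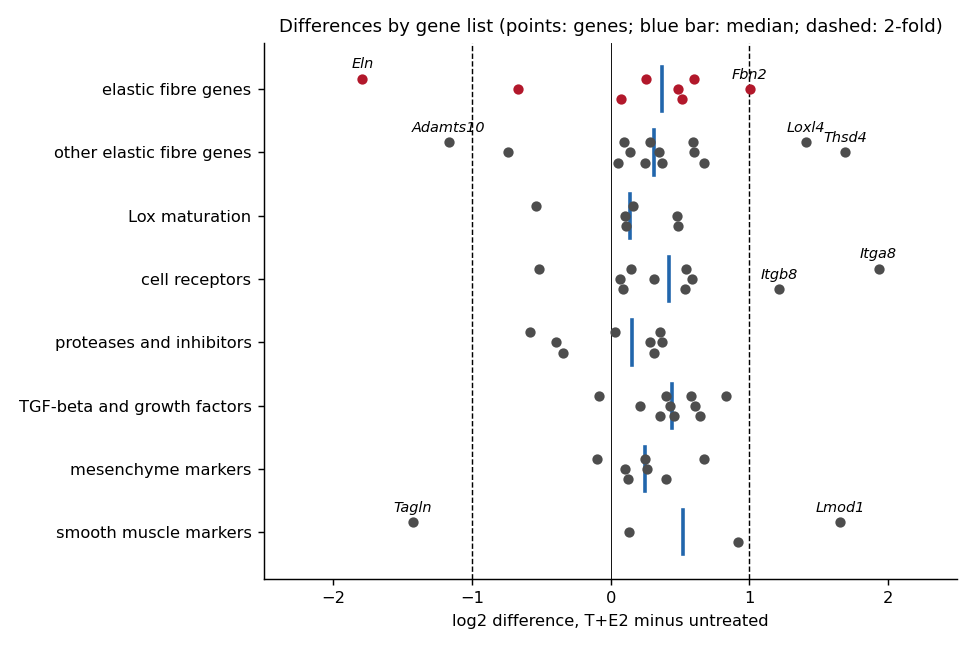
Log2 difference, T+E2 minus untreated (horizontal axis), of the measured genes of 8 lists (rows), with 1 point per gene, a blue bar at each list's median and dashed lines at 2-fold. Genes at least 2-fold different are named; the elastic fibre genes (red) run from Eln at -1.79 to Fbn2 at 1.003, around a median of 0.37.

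The genes that mature and support lysyl oxidase did not reach 2-fold. Of 8 listed, 6 were measured, with a median of 0.14. Bmp1, whose protease releases active LOX from its precursor, stood at 1021 and 702 intensity units (-0.54), and Fn1, the fibronectin gene, at log2 14.2 and 14.7 (0.49). A second Bmp1 probe set was nearly equal on the 2 arrays, at 103 and 99.4 intensity units (-0.055). A second Fn1 probe set went the other way, at 11.77 and 9.58 (-2.19).

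Receptors through which cells hold or sense elastic fibres had a median of 0.42 over 10 measured genes of 11 listed, with 2 at least 2-fold higher and 0 lower. Over all measured genes, 4.96% were higher and 4.01% lower by that much. Itga8, which encodes integrin α8, was under the floor on the untreated array and at 6.93 with T+E2, at least 3.81-fold higher. Its other probe set was under the floor on both arrays. Itgb8, which encodes the β8 partner of integrin αv in TGF-β activation, stood at 6.60 and 7.81 (2.32-fold higher). The integrin αv gene Itgav itself stood at 0.31. The sialidase gene Neu1, part of the elastin receptor complex, was at -0.52.

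By the probe set that gives each gene's value, no gene that degrades elastin or inhibits its degradation reached 2-fold. Of 12 listed, 8 were measured, with a median of 0.16, and the elastases Mmp12 and Elane were under the floor on both arrays. The largest differences were -0.58 for the elastin-degrading cathepsin gene Ctsk and -0.39 for the inhibitor gene Timp1. The 6 probe sets of the inhibitor gene Timp2 ran from -0.28 to 1.66, around a gene value of 0.28. In the list of TGF-β signalling and growth factor genes, which are known to act on elastin expression, 0 of 10 measured genes reached 2-fold and the median was 0.44. Tgfb1 stood at 5.35 and 6.18 (0.83), a second probe set of the receptor gene Tgfbr1 at 5.32 and 6.995 (1.68, against a gene value of 0.46) and the signal transducer gene Smad3 at 12.31 and 12.96 (0.64). Over these 5 lists together, 48 of 62 genes were measured, 4 were at least 2-fold higher and 1 was lower. Over all measured genes, 4.96% were higher and 4.01% lower by that much. Of genes with a mean log2 of 5 to 7, where Thsd4, Loxl4 and Itga8 lie, 13.9% were at least 2-fold higher. At 7 to 9, where Itgb8 lies, the share was 8.10%. Of the 20 genes of these lists with several measured probe sets, 13 had all of them on the same side. The other 7 did not, Fn1, Ltbp3 and Timp2 among them.

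The cell type label was checked against marker genes. Of 8 mesenchyme markers, 7 were measured, none reached 2-fold, and the largest differences were those of Pdgfra (0.67) and Pdgfrb (0.40). A probe set of the collagen gene Col1a2 stood at -1.98, apart from its gene value of 0.25. Thy1 was under the floor on both arrays. Their summed intensity was 160102 on the untreated array and 177821 with T+E2. Smooth muscle, which makes much of the elastin in vessel walls, was marked by 8 genes with a summed intensity of 29475 and 30462. Most of this sum came from Acta2, at 25121 and 27462. Of the 8 genes, Myh11, Cnn1, Des and Actg2 were under the floor on both arrays. The transgelin gene Tagln was 2.69-fold lower (-1.43), on the side of Eln, while Lmod1 was 3.15-fold higher (1.65), the smoothelin gene Smtn stood at 0.92 and Acta2 at 0.13, with a second Acta2 probe set at 1.53. Of the 4 measured smooth muscle markers 3 thus lay above 0, with a median of 0.52. The part of smooth muscle differentiation in the Eln difference was not tested. In bulk RNA, fewer cells of a type and less RNA per cell cannot be told apart.

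Of 10 epithelial markers, 9 were under the floor on both arrays, and Cdh1, which encodes E-cadherin, was higher by 2.20 (4.59-fold). The summed intensity of this list was 82.2 and 231, of which Cdh1 gave 41.4 and 190. Of 7 endothelial markers 6 were under the floor, and Tek stood at 0.20. The sums for that list were 930 and 1067, of which Tek gave 904 and 1040. Of 7 leukocyte markers with a probe set 6 were under the floor, Ptprc among them, and Lyz2 was 2.89-fold lower (-1.53). The leukocyte sums were 1096 and 400.0, of which Lyz2 gave 1065 and 369. The part of these cells in the members' differences was not tested.

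**Figure D4:**
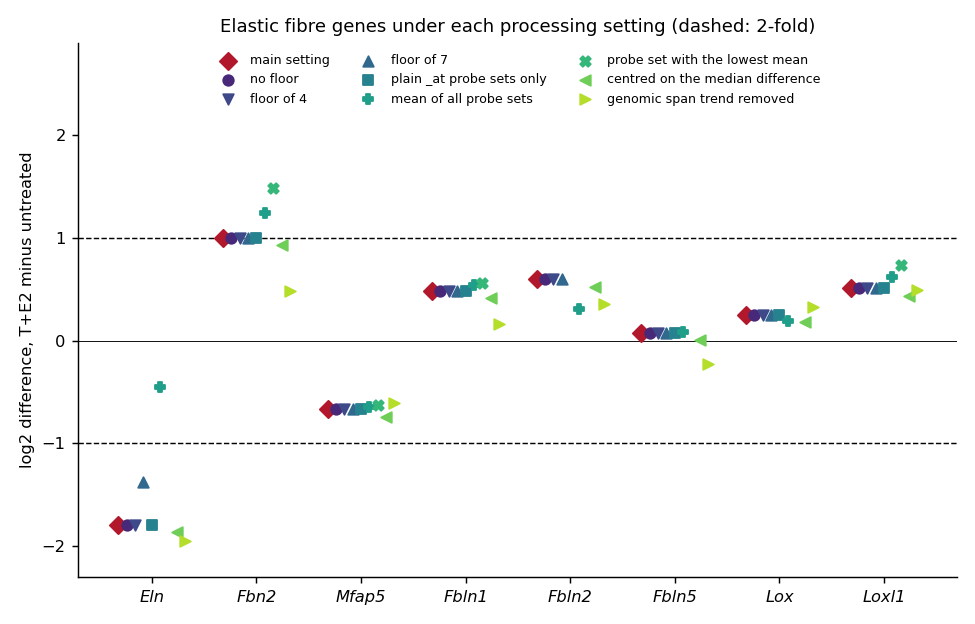
Log2 difference, T+E2 minus untreated (vertical axis), of the 8 measured elastic fibre genes under the main setting (red) and 8 alternatives, with dashed lines at 2-fold. Eln lies under the lower line in 7 of 8 settings that give it a value and at -0.45 with the mean of all probe sets, while Fbn2 reaches the upper line in 7 of 9. Those 7 settings all take Eln from the same probe set. The value of -0.45 is a bound, since the T+E2 mean was raised to the floor.

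Over these settings, 7 of the 8 measured members kept their sign, and Fbln5 did not. Eln was lower in 8 of 8 settings that gave it a value, from -1.95 to -0.45, the latter a bound set by the floor. All of these but the mean of all probe sets use the same Eln probe set, so they are not separate checks of it. With the lowest probe set Eln had no value. Mfap5 ran from -0.74 to -0.60, Loxl1 from 0.44 to 0.73 and Lox from 0.18 to 0.33.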

How the data were processed

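Total RNA of 1 untreated and 1 T+E2 culture was hybridised to Affymetrix mouse arrays of 45101 probe sets, with biotinylated cDNA made by NuGEN kits, per the labels' protocols. The deposited values are linear intensities between 3.75 and 71889 units. GCRMA, which corrects background by probe sequence and normalizes between arrays, is named in the submitters' processing notes, with no version named. Depth does not apply to arrays, and 1 array per condition limits the precision. Here log2 was taken with no further scaling, and values under 5 were raised to 5 before a difference was formed. Where only 1 array reached the floor, the fold is a bound and is written "at least". Probe sets were named from the platform annotation, updated through RefSeq (GRCm38.p6): 34945 named 1 gene, 932 several (none a member), 9160 were not named and 64 were controls. The 18 hybridization spikes differed by -0.25 to 0.09. The text names all members, up to 4 genes at least 2-fold different from each other list (or the 2 with the largest differences), and the 5 genes nearest Eln; other genes (Mfap4, Ltbp2, Ltbp3, Itgav, Neu1, Mmp12, Elane, Acta2, Smtn, Timp2, Tgfbr1, Col1a2 and others beyond that rule) were chosen after their values were seen. The members and lists were chosen with earlier results of these data known. The 2-fold call was run on simulated data with small added noise and without genes of a mean signal as low as that of Eln. That run cannot show the spread between cultures. Alternatives to the floor, the probe set rule, the scaling and the fold were tried. Python 3.11.15, pandas 2.3.3 and statsmodels 0.14.6 (lowess) were used.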

Additional observations from a re-analysis of the deposited data

How the results depend on the processing

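The 2 members at least 2-fold different were reduced to 1 with centring on the median difference and with the span trend removed (Eln in both), and to 1 when all probe sets were averaged or the lowest was taken (Fbn2 in both). The mean takes in the Eln probe set near background and falls under the floor on the T+E2 array. With the lowest probe set Eln is under the floor on both arrays. With a fold of 1.5 there were 4: Fbn2 and Fbln2 higher, Eln and Mfap5 lower (Fbln2 stood under 1.5-fold with centring, the span trend removed or its probe sets averaged), where 17.1% of all measured genes were higher and 14.1% lower. With the lowest probe set the members' median was 0.65, over 4 measured members. Under the other 7 alternatives it ran from 0.25 to 0.37. The median of the other elastic fibre genes ran from 0.19 to 0.32 over all 8. Over all genes the counts of higher and lower genes were 315 and 400 when all probe sets were averaged, 311 and 448 with the lowest, and 303 and 433 with the span trend removed. No paired analysis was possible because each condition has 1 array. Of genes with a mean log2 of 7 to 9, where Eln lies, 6.10% were at least 2-fold lower, and of those at 11 or more 1.55%, so differences spread more at low signal.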
